A study of Homo sapiens with 14 samples.

Results

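The cytochrome P450 enzymes of families CYP1 to CYP4, the soluble glutathione S-transferases (GSTs) and the UDP-glucuronosyltransferases (UGTs) were followed through the differentiation of human embryonic stem cells towards the pancreas. The genes were chosen by symbol, as rows of the deposited gene table named as a CYP1 to CYP4 enzyme, a GST of the alpha, mu, kappa, omega, pi, theta or zeta class, or a UGT of family UGT1A, UGT2A or UGT2B, with no further letters after the number. The rule found 72 genes of the 59050 in the table: 36 CYPs, 17 GSTs and 19 UGTs. The cells were wild-type HUES8, an established embryonic stem cell line, sampled as definitive endoderm (DE), as early pancreatic progenitors (PP1) and as late pancreatic progenitors (PP2). At each stage, RNA-seq of total RNA depleted of ribosomal RNA measured transcript levels, and Ribo-seq measured the fragments that ribosomes protect (footprints). The 14 libraries were split evenly between the assays, with 2 of DE, 2 of PP1 and 3 of PP2 in each. All groups share the line and the genotype, so the study describes 1 genetic background. The agents used to drive each stage are not given in the sources used here, and neither is whether replicates came from separate cultures; p-values therefore measure the spread between these libraries, which may be technical.

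These enzymes are the body's main means of clearing foreign chemicals, and they also handle hormones, bile acids, retinoids and fatty acids. CYPs are haem proteins of the endoplasmic reticulum that oxidise a substrate with electrons passed on by a reductase. GSTs join glutathione to reactive, electron-poor compounds, and UGTs join glucuronic acid to a substrate so that it can leave in bile or urine. The adult liver and the gut lining carry the highest levels of most of them. Many sit in clusters of near-identical genes, and reads from such copies can be split or shared between them by the counting, so single values within GSTA, GSTM, UGT1A, UGT2, CYP2A, CYP2C, CYP2D, CYP3A, CYP4A and CYP4F are less certain than those of isolated genes.

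Promoter sequences are shown for 4 of the genes whose RNA rose from DE to PP1, to set the near-identical GSTA pair side by side and to show 2 CYP promoters with a motif of a liver or xenobiotic factor. All are the 250 bases before the annotated start, read 5′ to 3′ on the gene's strand, from RefSeq on GRCh38.p14. GSTA1 lies on the minus strand with its promoter at chr6:52803817-52804066, and GSTA2 on the minus strand with its promoter at chr6:52763476-52763725. Capitals in this pair mark the bases that differ: 243 of 250 were identical (97.2%), 7 differed and no gap was needed.
GSTA1: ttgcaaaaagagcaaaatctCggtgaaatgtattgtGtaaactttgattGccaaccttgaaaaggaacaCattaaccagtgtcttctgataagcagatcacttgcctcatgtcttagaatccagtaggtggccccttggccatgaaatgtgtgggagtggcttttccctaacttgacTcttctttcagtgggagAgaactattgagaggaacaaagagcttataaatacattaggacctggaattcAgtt
GSTA2: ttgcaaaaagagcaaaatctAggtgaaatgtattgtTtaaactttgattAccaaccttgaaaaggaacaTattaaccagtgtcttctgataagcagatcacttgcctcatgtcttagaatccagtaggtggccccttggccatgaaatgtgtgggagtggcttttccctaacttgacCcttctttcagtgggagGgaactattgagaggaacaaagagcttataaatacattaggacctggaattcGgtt
CYP1A1 lies on the minus strand with its promoter at chr15:74725529-74725778. Capitals mark GCGTG, the core bound by the aryl hydrocarbon receptor AHR, at -57 to -53 from the start.
CYP1A1: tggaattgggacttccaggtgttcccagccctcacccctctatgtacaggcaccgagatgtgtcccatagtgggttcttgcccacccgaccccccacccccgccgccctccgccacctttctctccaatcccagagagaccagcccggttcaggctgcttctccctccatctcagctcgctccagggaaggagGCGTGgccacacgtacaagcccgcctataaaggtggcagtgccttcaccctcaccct
CYP2B6 lies on the plus strand with its promoter at chr19:40991032-40991281. Capitals mark the reverse complement of CAAAGTCCA, a core of the hepatocyte factor HNF4A, at -231 to -223 from the start.
CYP2B6: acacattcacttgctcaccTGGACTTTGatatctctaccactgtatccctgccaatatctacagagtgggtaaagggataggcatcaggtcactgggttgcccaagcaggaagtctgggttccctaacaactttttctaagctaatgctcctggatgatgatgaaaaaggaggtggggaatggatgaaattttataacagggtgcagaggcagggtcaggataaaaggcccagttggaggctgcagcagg

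Promoters were matched by symbol for 58 of the 72 genes, and motifs were searched on both strands in the 250 bases before the start of these and of all 27305 promoters in the RefSeq table. Results are given for 4 motifs, none of which is contained in another. The TATA box letters TATAAA were in 20 of the 58 promoters and in 11.13% of all promoters. In GSTA1 and GSTA2 they lay at -30 to -25. CAAAGTCCA was in 5 of the 58 (CYP2A6, CYP2A7, CYP2A13, CYP2B6 and CYP2C8) and in 0.293% of all. In CYP2A6, CYP2A7 and CYP2A13, near-identical genes of the CYP2A cluster, it lay at the same place, -56 to -48, so these matches are not independent. Of the 5 genes, CYP2B6 alone was called in RNA from DE to PP1, and CYP2A13 did not pass the RNA filter. GCGTG was in 14 of the 58 and in 31.91% of all, and the antioxidant response core TGACNNNGC in 12 of the 58 and in 11.03% of all. UGT2B7 and UGT2B11, which lie in one cluster, had promoters only 65.1% identical. A match is a description of letters and shows no binding.

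Total counts per library ran from 15107847 to 21009065 for RNA and from 4710335 to 24186949 for Ribo. The labelled stages were checked against markers, with levels given in CPM, the count scaled to a fixed library size. Summed RNA of 7 endoderm markers was 6624 to 6994 CPM in DE, 853 to 924 in PP1 and 211 to 579 in PP2. Summed RNA of 7 pancreatic progenitor markers was 104 to 109 CPM in DE, where PDX1 and NKX6-1 were at 0, 401 to 419 in PP1 and 286 to 1058 in PP2. The 8 hepatocyte markers summed to 16.6 to 19.3 CPM in DE, 12979 to 14022 in PP1 and 4747 to 7178 in PP2, and the 7 intestinal markers to 16.01 to 16.3, 433 to 490 and 141 to 173 CPM. In bulk libraries such as these, fewer cells of a type and less RNA per cell cannot be told apart. Among RNA libraries, PP2 replicate 3 stood apart from the other PP2 libraries across all genes: chi-square per degree of freedom was 141.2 and 151.8 against PP2 replicates 1 and 2, 3.48 between those, 5.22 between the DE libraries and 17.05 between the PP1 libraries. In the order of replicates 1, 2 and 3 of PP2, RNA of PDX1 was 212, 198 and 42.1 CPM, of SOX9 511, 521 and 100.4 CPM, of HNF4A 68.9, 74.6 and 14.5 CPM, of AFP 1243, 1427 and 3538 CPM and of ALB 6.42, 9.39 and 56.6 CPM. In replicate 3, PDX1, SOX9 and HNF4A were thus lower, and AFP and ALB higher, than in the other PP2 libraries. Not all listed markers moved with them: PTF1A was 14.8, 12.8 and 15.8 CPM and SERPINA1 2611, 2667 and 1852 CPM, in the same order. Among Ribo libraries, PP2 replicates 1 and 3 had 91.5% and 77.5% of their counts in protein-coding genes against 27.1% to 42.6% in the other 5, and only 1.65% and 11.004% in MT-RNR2, a ribosomal RNA of the mitochondrion, against 44.6% to 60.8%.

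A large part of the enzymes was silent or nearly so. Of the 72 genes, 13 had no RNA count in any library and 36 passed the filter on low counts for RNA: 21 CYPs, 11 GSTs and 4 UGTs. Of the 36 that did not pass, none had more than 45 RNA counts over the 7 libraries, and the highest level in a library was 1.602 CPM. The whole UGT1A cluster, 9 genes that share their later exons and include the bilirubin enzyme UGT1A1, had 9 RNA counts over all 7 libraries and 51 footprint counts over the 7 Ribo libraries. Whether reads in the shared exons were counted for each gene or dropped is not given in the sources used here, so the levels of these genes are uncertain. CYP3A4, CYP2C19 and CYP1A2, drug-metabolising CYPs of adult liver, were among the genes that did not pass. GSTT2 and CYP2D7 are annotated as transcribed pseudogenes.

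**Figure D1:**
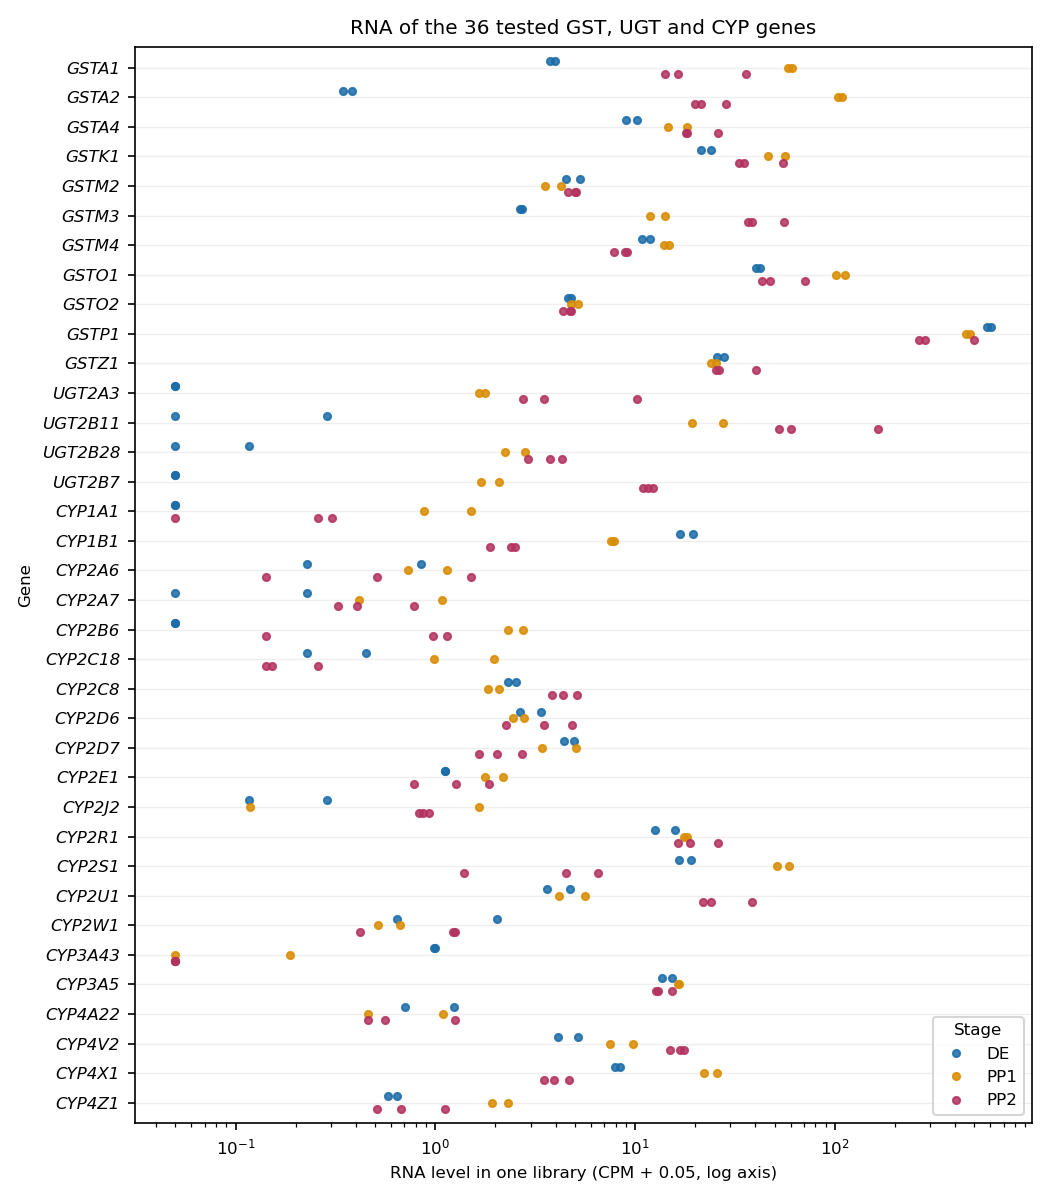
RNA level in CPM (log axis, with a small offset that keeps a count of 0 on the plot) of the 36 tested genes. Each point is 1 library, coloured by stage; GSTP1 sits between 265 and 607 CPM in all 7 libraries, while the UGT2 genes and GSTA2 are at or near 0 in DE.

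GSTP1, the pi-class GST and a common enzyme of proliferating cells, was the most abundant of the enzymes at every stage. Its RNA level was 579 and 607 CPM in DE, 452 and 472 CPM in PP1 and 265, 284 and 497 CPM in PP2. All 3 PP2 values lay below both DE values, but PP2 replicate 3 lay above both PP1 values, and no comparison was called (PP2 against DE, log2 fold change -0.77 ± 0.28 (SE), adjusted p = 0.0676). PP2 was called lower than DE in 4 of 12 other settings, and the other comparisons were called lower in 2 of 12 each, all 3 without PP2 replicate 3 and under the replicate block. GSTP1 held 71.8% and 72.7% of the 72 genes' summed RNA CPM in the DE libraries, 43.5% and 44.4% in PP1, and 40.6%, 41.8% and 43.7% in PP2. Per kilobase of gene length, mean RNA of GSTP1 in DE was 310.1 CPM, followed by GSTO1 at 24.3 and CYP2S1 at 6.53. In PP1 the order of mean levels per kilobase was GSTP1 (242), GSTA2 (86.7), GSTO1 (63.3) and GSTA1 (47.2), and in PP2 it was GSTP1 (182), UGT2B11 (39.6), GSTO1 (31.8), GSTA2 (18.99) and GSTA1 (17.5). In PP2 the libraries of UGT2B11 and GSTO1 overlapped on this scale, as did those of GSTA2 and GSTA1, so the order within each pair is within their spread.

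From DE to PP1 the change in RNA was mostly upward. Of the 36 genes tested, 15 rose and 2 fell (47.2% called), where 24.3% of all 24603 genes tested were called, 12.3% higher and 12% lower. The median log2 fold change of the 36 was 0.88 against 0.01 for all genes tested. Setting the 4 genes at 0 in DE at their bound could not move this median, because each bound lies above it. By class, 6 of 21 CYPs rose and 2 fell, 5 of 11 GSTs rose and none fell, and 4 of 4 UGTs rose. These shares cover only genes that passed the filter: a gene silent in DE passed through its later level, so it had to differ. The direction of each called gene was the same in all 12 other settings, but the number of calls rested on the few libraries: leaving out DE replicate 1 gave 7 calls and DE replicate 2 gave 8, while leaving out PP1 replicate 1 gave 12 and PP1 replicate 2 gave 7. The 7 called in every setting were GSTA1, GSTA2, GSTM3, UGT2B7, UGT2B11, UGT2B28 and CYP4X1.

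From PP1 to PP2, 6 of the 36 rose and 9 fell (41.7% called), where 18.4% of all genes were called, 7.8% higher and 10.6% lower. The median log2 fold change was -0.30 against 0.01 for all genes. By class, 3 CYPs rose and 5 fell, 1 GST rose and 4 fell, and 2 UGTs rose. Without PP1 replicate 1, and likewise without PP1 replicate 2, 8 were called, and GSTA2, GSTM3, UGT2B7, CYP1B1, CYP2S1, CYP2U1 and CYP4X1 were called in every setting. Between DE and PP2, 13 rose and 5 fell (50% called), where 33.5% of all genes were called, 16.4% higher and 17.1% lower, with a median of 0.42 against 0.05. There 4 CYPs rose and 5 fell, 5 GSTs rose and none fell, and 4 UGTs rose; without DE replicate 1, and likewise without DE replicate 2, 11 were called. Leaving out PP2 replicate 3, whose markers differed as given above, kept all 52 calls made in RNA and in translation efficiency. The 3 comparisons share libraries in pairs, so they are not independent of each other.

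**Figure D2:**
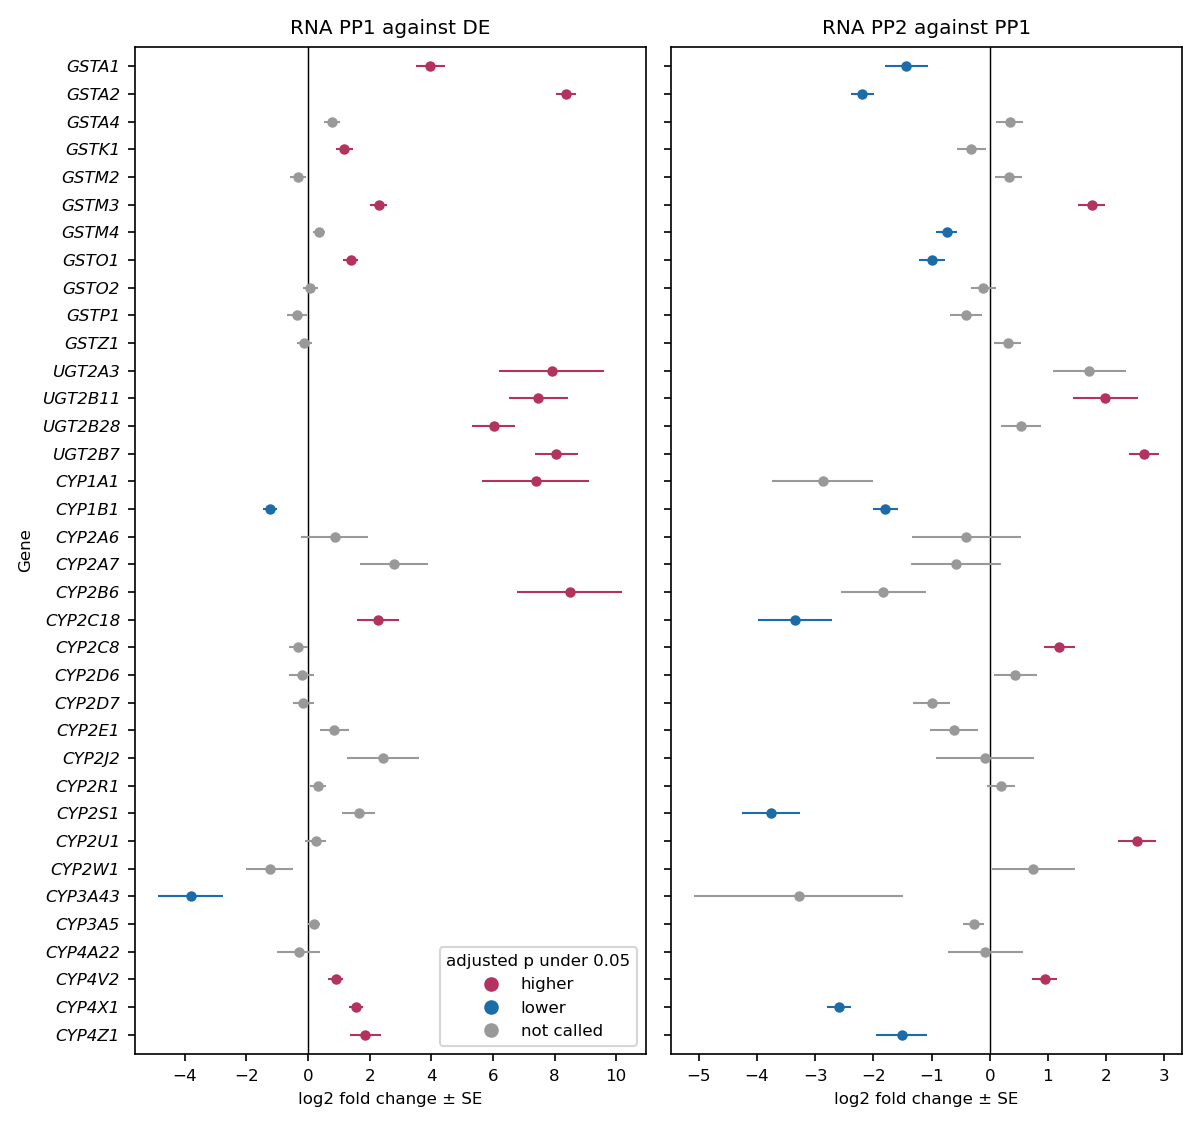
RNA log2 fold change ± SE of the 36 tested genes, PP1 against DE on the left and PP2 against PP1 on the right, coloured by the call at an adjusted p under 0.05. GSTA2, the UGT2 genes, CYP1A1 and CYP2B6 lie far to the right on the left panel; the 4 UGT2 genes have estimates above 0 on the right panel and GSTA1 and GSTA2 below 0, and estimates for genes at 0 in a stage depend on the prior count.

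Of the alpha-class GSTs, GSTA1 and GSTA2 rose from DE to PP1 and fell from PP1 to PP2. GSTA1 and GSTA2, abundant enzymes of hepatocytes and gut that also reduce organic hydroperoxides, lie in a cluster of 5 GSTA genes at chr6:52750087-52995284. RNA of GSTA2 was 0.297 and 0.332 CPM in DE, 103 and 108 CPM in PP1 and 19.9, 21.2 and 28.4 CPM in PP2. DE was almost silent, PP1 was highest, PP2 lay between, and no stage overlapped another. GSTA2 RNA rose from DE to PP1 (log2 fold change 8.37 ± 0.33 (SE), adjusted p = 8.8e-06) and fell from PP1 to PP2 (log2 fold change -2.19 ± 0.19 (SE), adjusted p = 0.000403). RNA of GSTA1 was 3.92 and 3.72 CPM in DE, 61.2 and 58.01 CPM in PP1 and 14.04, 16.3 and 35.9 CPM in PP2. It followed the same order with no overlap, rose to PP1 (log2 fold change 3.96 ± 0.47 (SE), adjusted p = 0.000581) and fell from PP1 to PP2 (log2 fold change -1.43 ± 0.36 (SE), adjusted p = 0.0301). Against DE, PP2 stayed higher for both (GSTA2, 6.18 ± 0.31, adjusted p = 6.4e-06; GSTA1, 2.53 ± 0.43, adjusted p = 0.0026). PP2 replicate 3, the library whose markers stood apart, was the highest of PP2 for GSTA1, and the part of that shift was not tested. The later fall of GSTA1 was not called without DE replicate 1 or 2, PP1 replicate 1 or 2, or PP2 replicate 1 or 2 (adjusted p up to 0.163). Because the pair is so alike, how reads were shared between them was not tested.

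Footprints of both alpha genes also rose from DE to PP1. Footprints of GSTA2 were 0 CPM in both DE libraries, 36.6 and 57.8 CPM in PP1 and 15.7, 3.37 and 10.6 CPM in PP2, and those of GSTA1 were 0.355 and 0.724 CPM in DE, 22.9 and 27.6 CPM in PP1 and 12.8, 4.66 and 7.296 CPM in PP2. Neither DE library reached 1 CPM in either gene, and both PP1 libraries lay above all 3 PP2 libraries. GSTA2 footprints rose at least 174-fold from DE to PP1 (adjusted p = 0.000745), the bound being set by 3 counts over the DE group, and fell from PP1 to PP2 (log2 fold change -2.23 ± 0.55 (SE), adjusted p = 0.0473). That fall was not called without DE replicate 1 or 2, PP1 replicate 1 or 2, or PP2 replicate 3, or under the replicate block (adjusted p up to 0.321). GSTA1 footprints rose to PP1 (log2 fold change 5.52 ± 0.71 (SE), adjusted p = 0.000888), and their difference from PP1 to PP2 was not called (-1.59 ± 0.47, adjusted p = 0.0784). GSTA3 and GSTA5 had no count in any of the 14 libraries. GSTA4, which conjugates lipid aldehydes such as hydroxynonenal and is more widely expressed, had RNA of 10.2 and 8.904 CPM in DE, 18.2 and 14.6 CPM in PP1 and 17.9, 18.2 and 26.04 CPM in PP2. All later libraries lay above DE, and the PP2 difference was called (log2 fold change 1.12 ± 0.24 (SE), adjusted p = 0.0083) while the PP1 difference was not (adjusted p = 0.0617). The PP2 call was lost without DE replicate 1 or 2 (adjusted p up to 0.0927).

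Like GSTA1 and GSTA2, the summed RNA of hepatocyte markers and of intestinal markers, given above, was highest in PP1 and lowest in DE, where AFP, TTR, SERPINA1, FGB, CDX1, FABP1 and FABP2 were at 0. The order was not particular to these lists. The 6 mesenchyme markers summed to 157 to 188 CPM in DE, 443 to 499 in PP1 and 281 to 475 in PP2, the same order of means, with PP1 and PP2 overlapping. All 8 hepatocyte markers were tested. From DE to PP1, 7 rose (87.5% called, against 24.3% of all genes tested). From PP1 to PP2, 2 rose and 5 fell (87.5% called, against 18.4% of all genes tested). AFP, with APOB the main part of the sum in PP1, had RNA of 6566 and 6984 CPM in PP1 and 1243, 1427 and 3538 CPM in PP2. Mean RNA in PP2 was 2377 CPM for SERPINA1, 2070 for AFP and 481 for APOB. Single markers differed from the sum: SERPINA1 had 59.8 and 74.4 CPM in PP1 and rose to 2611, 2667 and 1852 CPM in PP2 (log2 fold change 5.15 ± 0.31 (SE), adjusted p = 0.000205), and TF rose as well (log2 fold change 1.999 ± 0.57 (SE), adjusted p = 0.0453). All 4 tested intestinal markers rose from DE to PP1, where 12.3% of all genes tested were called higher. From PP1 to PP2, 3 of them fell, where 10.6% of all were called lower. The untested CDX1, FABP2 and LGALS4 stayed at or below 0.199 CPM in every RNA library. FABP1, at 0 in DE RNA, had footprints of 13.8 and 18.3 CPM in DE. Their part in the result was not tested.

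GSTM3, a mu-class GST known from brain and testis, rose at both steps. Its RNA was 2.61 and 2.66 CPM in DE, 11.8 and 14.04 CPM in PP1 and 38.3, 36.8 and 55.3 CPM in PP2. The stages did not overlap, with log2 fold changes of 2.29 ± 0.27, adjusted p = 0.00062 from DE to PP1 and 1.75 ± 0.24, adjusted p = 0.00238 from PP1 to PP2. Its footprints were 3.01 and 8.33 CPM in DE, 13.5 and 21.8 CPM in PP1 and 111, 59.3 and 63.7 CPM in PP2. They were higher in PP2 than in either earlier stage, against PP1 (log2 fold change 2.15 ± 0.49 (SE), adjusted p = 0.0332) and against DE (log2 fold change 3.78 ± 0.54 (SE), adjusted p = 0.000839), and the difference from DE to PP1 was not called (1.63 ± 0.54, adjusted p = 0.0963), but was called higher in 5 of 13 other settings. The PP1 to PP2 footprint call was lost without PP1 replicate 1 or 2, or PP2 replicate 3, or under the replicate block (adjusted p up to 0.321). GSTM3 is 1 of 5 GSTM genes at chr1:109656099-109741038. GSTM4 RNA was 10.7 and 11.8 CPM in DE, 13.9 and 14.8 CPM in PP1 and 7.83, 9.08 and 8.895 CPM in PP2. PP1 was highest and PP2 lowest with no overlap, and it fell from PP1 to PP2 (log2 fold change -0.74 ± 0.18 (SE), adjusted p = 0.0267), a call lost without DE replicate 1 or 2, PP1 replicate 1 or 2, or PP2 replicate 1 or 2, or with no low-count filter (adjusted p up to 0.173). GSTM2 RNA stayed between 3.496 and 5.25 CPM in all 7 libraries with no call, and GSTM1 and GSTM5 did not pass the filter.

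GSTO1 and GSTK1 rose from DE to PP1 from a substantial level in DE. GSTO1, an omega-class enzyme that reduces thiols and dehydroascorbate, had RNA of 42.1 and 40.3 CPM in DE, 102 and 112 CPM in PP1 and 43.2, 47.5 and 70.7 CPM in PP2. PP1 lay above every other library; GSTO1 rose from DE to PP1 (log2 fold change 1.38 ± 0.26 (SE), adjusted p = 0.00584) and fell from PP1 to PP2 (log2 fold change -0.99 ± 0.23 (SE), adjusted p = 0.0205). Its footprints were 40.8 and 49.3 CPM in DE, 112 and 206 CPM in PP1 and 133, 57.9 and 83.7 CPM in PP2, and they rose from DE to PP1 (log2 fold change 1.82 ± 0.48 (SE), adjusted p = 0.0444), with PP1 and PP2 overlapping. The rise in RNA was not called without DE replicate 1 or 2, or PP1 replicate 2 (adjusted p up to 0.0652), the fall was not called without DE replicate 1 or 2, PP1 replicate 1 or 2, or PP2 replicate 1 or 2 (adjusted p up to 0.148), and the rise in footprints was not called without DE replicate 1 or 2, PP1 replicate 1 or 2, or PP2 replicate 3, or under the replicate block (adjusted p up to 0.391). GSTK1, the kappa-class enzyme of mitochondria and peroxisomes, had RNA of 21.4 and 23.9 CPM in DE, 56.1 and 46.4 CPM in PP1 and 35.1, 33.1 and 55.3 CPM in PP2. PP1 and PP2 overlapped, and both lay above DE. GSTK1 was higher than in DE at PP1 (log2 fold change 1.18 ± 0.28 (SE), adjusted p = 0.0162) and at PP2 (log2 fold change 0.86 ± 0.26 (SE), adjusted p = 0.033), both calls being lost without DE replicate 1 or 2, or PP1 replicate 1 or 2 (adjusted p up to 0.129 and 0.199). GSTZ1, the maleylacetoacetate isomerase of tyrosine breakdown, had RNA of 25.6 and 27.9 CPM in DE, 25.4 and 23.96 CPM in PP1 and 26.3, 25.3 and 40.1 CPM in PP2, and GSTO2 RNA stayed between 4.29 and 5.14 CPM. For GSTZ1 both DE libraries lay above both PP1 libraries, and PP2 overlapped each of them. Neither gene was called in any comparison; for GSTZ1 the log2 fold change from DE to PP1 was -0.12 ± 0.25, adjusted p = 0.789.

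All 4 tested UGTs belong to the UGT2 cluster of 10 genes at chr4:68537173-69653247, and all 4 rose from DE to PP1, where 12.3% of all genes tested were called higher. Silent or nearly so in DE, the 4 passed the filter through their later level. These enzymes glucuronidate steroids, bile acids and drugs. UGT2B11 had RNA of 0.237 and 0 CPM in DE, 19.2 and 27.6 CPM in PP1 and 52.4, 60.4 and 165 CPM in PP2. DE was at or near 0, each step was higher with no overlap, and PP2 replicate 3, the library whose markers stood apart, was well above the other PP2 libraries. UGT2B11 rose from DE to PP1 (log2 fold change 7.47 ± 0.95 (SE), adjusted p = 0.000862) and again from PP1 to PP2 (log2 fold change 1.98 ± 0.56 (SE), adjusted p = 0.0423). The second rise was not called without DE replicate 1 or 2, or PP1 replicate 1 or 2 (adjusted p up to 0.272); without PP2 replicate 3 it was called with a log2 fold change of 1.27 (adjusted p = 3.065e-06). Footprints of UGT2B11 were 0 CPM in both DE libraries, 5.38 and 5.81 CPM in PP1 and 32.2, 12.2 and 28.5 CPM in PP2, again with no overlap between stages. Over DE they rose at least 20.8-fold by PP1 (adjusted p = 0.00287) and at least 107-fold by PP2 (adjusted p = 0.000194), with 3 counts over the DE group as the floor. The footprint rise from PP1 to PP2 (log2 fold change 2.12 ± 0.53 (SE), adjusted p = 0.0495) was lost in 9 of 13 other settings (adjusted p up to 0.534), among them leaving out any 1 of the DE or PP1 libraries.

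UGT2B7, which glucuronidates morphine and steroid hormones, had RNA of 0 CPM in both DE libraries, 1.64 and 2.03 CPM in PP1 and 11.6, 10.9 and 12.3 CPM in PP2. The stages did not overlap. Its RNA rose at least 19.8-fold from DE to PP1 (adjusted p = 0.000252), at least 123-fold from DE to PP2 (adjusted p = 1.7e-05), and from PP1 to PP2 (log2 fold change 2.65 ± 0.26 (SE), adjusted p = 0.00104). UGT2A3 had RNA of 0 CPM in both DE libraries, 1.71 and 1.61 CPM in PP1 and 3.44, 2.704 and 10.2 CPM in PP2. It rose at least 17.6-fold by PP1 (adjusted p = 0.0138) and at least 59.8-fold by PP2 (adjusted p = 0.00212); PP2 replicate 3 was the highest library, and without it the PP2 bound was 32.6-fold. No stage overlapped another, and the step from PP1 to PP2 was not called (1.71 ± 0.63, adjusted p = 0.103), although 3 of 12 other settings called it. Its rise to PP1 was not called without DE replicate 1 or 2, or PP1 replicate 2 (adjusted p up to 0.0658). UGT2B28, an androgen-conjugating enzyme, had RNA of 0 and 0.0665 CPM in DE, 2.19 and 2.76 CPM in PP1 and 3.71, 2.86 and 4.24 CPM in PP2. With 1 count in the DE group, the PP1 to DE ratio was 80.2 (95% counting interval 14.003 to 3203) (adjusted p = 0.000554), and the small difference between PP1 and PP2, whose libraries did not overlap, was not called (0.54 ± 0.35, adjusted p = 0.324). UGT2A1, UGT2A2, UGT2B4, UGT2B10, UGT2B15 and UGT2B17 did not pass the RNA filter. Mean RNA of all 4 tested UGT2 genes was highest in PP2. Of the 8 hepatocyte markers, SERPINA1 and TF also rose in RNA from PP1 to PP2, while 5 fell. ALB had 8.499 and 12.6 CPM in PP1 against 6.42, 9.39 and 56.6 CPM in PP2, a difference that was not called. Summed footprints of the 8 hepatocyte markers were 12492 to 12720 CPM in PP1 and 7305 to 20061 CPM in PP2. Within that sum, mean footprints of SERPINA1 were 107 CPM in PP1 and 9925 in PP2, and those of AFP 9157 and 3533. The part of hepatocyte-like cells, and of the marker shift in RNA PP2 replicate 3, in the UGT2 values was not tested.

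**Figure D3:**
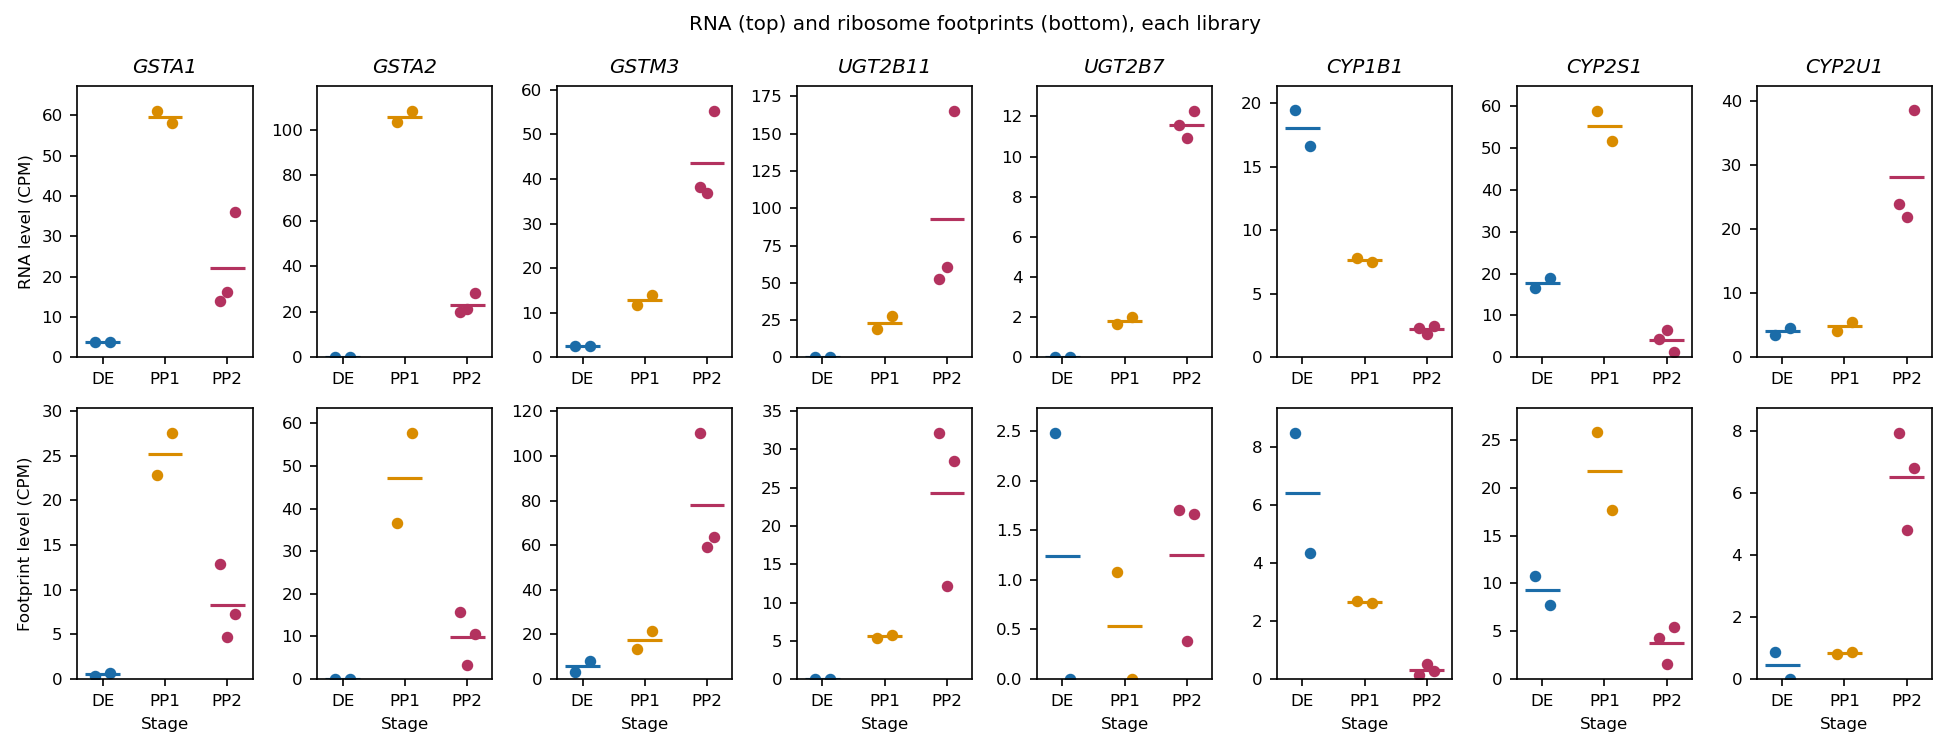
RNA and footprint levels (CPM, linear axes from 0) of 8 genes, RNA in the upper row and footprints in the lower, by stage. Each point is 1 library and each bar the mean of a stage; UGT2B7 has RNA of 10.9 to 12.3 CPM in the 3 PP2 libraries while its footprints there are at most 1.702 CPM, and GSTA1 and GSTA2 peak in PP1 in both assays.

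From DE to PP1, CYP1B1 fell and CYP1A1 rose. CYP1B1, an enzyme of oestrogen and retinol oxidation outside the liver, at chr2:38067509-38076151, had RNA of 19.5 and 16.7 CPM in DE, 7.81 and 7.54 CPM in PP1 and 2.35, 1.84 and 2.44 CPM in PP2. It fell at each step with no overlap, from DE to PP1 (log2 fold change -1.24 ± 0.23 (SE), adjusted p = 0.00587) and from PP1 to PP2 (log2 fold change -1.79 ± 0.22 (SE), adjusted p = 0.00154). Its footprints were 8.51 and 4.35 CPM in DE, 2.69 and 2.61 CPM in PP1 and 0.152, 0.518 and 0.289 CPM in PP2, and they fell from DE to PP2 (log2 fold change -4.43 ± 0.83 (SE), adjusted p = 0.00381), a call lost under the replicate block (adjusted p up to 0.0514). The first RNA fall was not called without DE replicate 1, or PP1 replicate 2 (adjusted p up to 0.0617). CYP1A1, the classic target of AHR that oxidises polycyclic hydrocarbons, was low: RNA was 0 CPM in both DE libraries, 0.822 and 1.46 CPM in PP1 and 0.209, 0.255 and 0 CPM in PP2. Both PP1 libraries lay above all others. It rose at least 12.6-fold from DE to PP1 (adjusted p = 0.0204), a call lost without DE replicate 1 or 2, or PP1 replicate 1 or 2 (adjusted p up to 0.114). The difference from PP1 to PP2 was not called (-2.87 ± 0.87, adjusted p = 0.0604), but it was called lower in 4 of 12 other settings. CYP1A2 did not pass the filter.

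Of the 17 CYP2 genes, 13 were tested. From PP1 to PP2, CYP2U1 and CYP2C8 rose, and CYP2S1 and CYP2C18 fell (30.8% called, against 18.4% of all genes tested). CYP2S1, an epithelial enzyme that acts on retinoids and lipid peroxides, at chr19:41193219-41207539, had RNA of 16.5 and 18.9 CPM in DE, 58.7 and 51.6 CPM in PP1 and 4.44, 6.48 and 1.34 CPM in PP2. PP1 was highest and PP2 lowest with no overlap; the fall from PP1 to PP2 was called (log2 fold change -3.76 ± 0.50 (SE), adjusted p = 0.00214), and the rise in mean from DE to PP1 was not (1.64 ± 0.53, adjusted p = 0.0557). The latter was called in 5 of 12 other settings. Its footprints were 10.8 and 7.79 CPM in DE, 25.8 and 17.7 CPM in PP1 and 4.27, 1.55 and 5.49 CPM in PP2, and they fell from PP1 to PP2 (log2 fold change -2.501 ± 0.51 (SE), adjusted p = 0.0228), a call lost without PP1 replicate 1 or 2, or PP2 replicate 3 (adjusted p up to 0.261). CYP2U1, a fatty acid hydroxylase, at chr4:107931549-107953461, had RNA of 3.56 and 4.65 CPM in DE, 4.11 and 5.56 CPM in PP1 and 23.9, 21.9 and 38.6 CPM in PP2. DE and PP1 overlapped, and all 3 PP2 libraries lay well above them (PP2 against PP1, log2 fold change 2.53 ± 0.33 (SE), adjusted p = 0.00192). Its footprints were 0.886 and 0 CPM in DE, 0.807 and 0.871 CPM in PP1 and 7.93, 4.79 and 6.79 CPM in PP2; PP2 was higher than DE (log2 fold change 3.84 ± 1.02 (SE), adjusted p = 0.0192), a call lost without DE replicate 2, or PP2 replicate 3, or under the replicate block or without PP2 replicates 1 and 3 together (adjusted p up to 0.183).

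CYP2B6, which metabolises bupropion and efavirenz, was at 0 in DE. Its RNA was 0 CPM in both DE libraries, 2.26 and 2.703 CPM in PP1 and 1.096, 0.918 and 0.0922 CPM in PP2. It rose at least 26.7-fold by PP1 (adjusted p = 0.0108) and was at least 7.21-fold higher in PP2 than in DE (adjusted p = 0.0338), though PP2 replicate 3 was close to 0. The first call was lost without DE replicate 1 or 2, or PP1 replicate 2 (adjusted p up to 0.0619), and the second without DE replicate 1 or 2, PP1 replicate 1 or 2, or PP2 replicate 1 or 2 (adjusted p up to 0.135). CYP2C18 RNA was 0.178 and 0.399 CPM in DE, 1.92 and 0.936 CPM in PP1 and 0.209, 0.102 and 0.0922 CPM in PP2. PP1 lay above every other library; it rose to PP1 (log2 fold change 2.28 ± 0.68 (SE), adjusted p = 0.042) and fell by PP2 (log2 fold change -3.34 ± 0.63 (SE), adjusted p = 0.0095). The rise was lost without DE replicate 1 or 2, PP1 replicate 1 or 2, or PP2 replicate 2, or under DESeq2's Wald test (adjusted p up to 0.296), and the fall was lost without PP1 replicate 1 (adjusted p up to 0.124). CYP2C8, an oxidase of paclitaxel and arachidonic acid, had RNA of 2.49 and 2.26 CPM in DE, 1.78 and 2.03 CPM in PP1 and 3.81, 4.29 and 5.07 CPM in PP2, highest in PP2 with no overlap (PP2 against PP1, log2 fold change 1.199 ± 0.27 (SE), adjusted p = 0.02; PP2 against DE, 0.88 ± 0.27, adjusted p = 0.0353). These calls were lost without PP1 replicate 1 or 2 (adjusted p up to 0.154) and, for DE, in 7 of 12 other settings (adjusted p up to 0.203). The pseudogene CYP2D7 had RNA of 4.33 and 4.92 CPM in DE, 5.003 and 3.38 CPM in PP1 and 2.66, 1.99 and 1.61 CPM in PP2. PP2 lay below both other stages, and CYP2D7 fell between DE and PP2 (log2 fold change -1.15 ± 0.31 (SE), adjusted p = 0.0221), a call lost without DE replicate 1 or 2, or PP2 replicate 2 (adjusted p up to 0.134). CYP2R1, the vitamin D hydroxylase of the liver, had RNA of 15.8 and 12.6 CPM in DE, 18.2 and 17.5 CPM in PP1 and 18.8, 16.4 and 26.1 CPM in PP2, with no call. CYP2A6, CYP2A7, CYP2D6, CYP2E1, CYP2J2 and CYP2W1 were tested and not called in RNA.

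In family CYP3, the drug-metabolising CYP3A5 was the one with steady RNA: 15.2 and 13.6 CPM in DE, 16.6 and 16.4 CPM in PP1 and 13.05, 12.7 and 15.2 CPM in PP2. The stage ranges lay close together and no comparison was called (PP1 against DE, 0.199 ± 0.20, adjusted p = 0.527; PP2 against PP1, -0.28 ± 0.18, adjusted p = 0.325). CYP3A43 was low, with RNA of 0.9496 and 0.9303 CPM in DE, 0.137 and 0 CPM in PP1 and 0 CPM in all 3 PP2 libraries, and fell from DE to PP1, where 2 counts remained and the DE to PP1 ratio was 15.9 (95% counting interval 4.04 to 137) (adjusted p = 0.0462); in PP2 it was at least 18.95-fold lower than in DE (adjusted p = 0.00684). The first of these calls was lost without DE replicate 1 or 2, or PP1 replicate 1 or 2 (adjusted p up to 0.236), and the second without DE replicate 1 or 2 (adjusted p up to 0.06). CYP3A4 and CYP3A7, the main adult and fetal liver forms, did not pass the filter.

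Of the 12 CYP4 genes, a family of fatty acid omega-hydroxylases, only 4 passed the RNA filter. From DE to PP1, 3 of these 4 rose (75% called, against 24.3% of all genes tested). From PP1 to PP2, CYP4V2 rose, and CYP4X1 and CYP4Z1 fell (75% called, against 18.4% of all genes tested). CYP4V2, the gene of Bietti crystalline dystrophy, at chr4:186191567-186213463, had RNA of 5.104 and 4.05 CPM in DE, 9.66 and 7.43 CPM in PP1 and 17.5, 16.7 and 14.9 CPM in PP2. It rose at each step with no overlap, from DE to PP1 (log2 fold change 0.895 ± 0.24 (SE), adjusted p = 0.0293) and from PP1 to PP2 (log2 fold change 0.94 ± 0.22 (SE), adjusted p = 0.0211). Both step calls were lost without single libraries: the first without DE replicate 1 or 2, PP1 replicate 1 or 2, or PP2 replicate 2 (adjusted p up to 0.21), the second without PP1 replicate 1 or 2, or PP2 replicate 1 or 2 (adjusted p up to 0.177). The change from DE to PP2 (1.84 ± 0.23, adjusted p = 0.000566) held in all 12 other settings. CYP4X1 had RNA of 8.37 and 7.91 CPM in DE, 22.1 and 25.7 CPM in PP1 and 3.44, 4.64 and 3.87 CPM in PP2. It rose from DE to PP1 (log2 fold change 1.55 ± 0.23 (SE), adjusted p = 0.00175) and fell from PP1 to PP2 (log2 fold change -2.58 ± 0.21 (SE), adjusted p = 0.000288) to below its DE level (-1.03 ± 0.21, adjusted p = 0.00638), with no overlap between stages. The difference between DE and PP2 was not called without DE replicate 1 (adjusted p up to 0.058). Its neighbour CYP4Z1 was lower, with RNA of 0.593 and 0.532 CPM in DE, 2.26 and 1.87 CPM in PP1 and 0.626, 1.07 and 0.461 CPM in PP2. PP1 lay above every other library, and CYP4Z1 also rose (log2 fold change 1.86 ± 0.51 (SE), adjusted p = 0.0302) and fell (log2 fold change -1.52 ± 0.43 (SE), adjusted p = 0.0439). The rise of CYP4Z1 was lost without DE replicate 1 or 2, or PP1 replicate 1 or 2 (adjusted p up to 0.164), and its fall without DE replicate 1 or 2, PP1 replicate 1 or 2, or PP2 replicate 1 (adjusted p up to 0.229). CYP4A22 was tested and not called. None of the 6 CYP4F genes passed the RNA filter, and 4 of them had no RNA count.

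In the footprint libraries 22 of the 72 genes passed the filter: 7 CYPs, 11 GSTs and 4 UGTs. From DE to PP1, 4 rose (GSTA1, GSTA2, GSTO1 and UGT2B11) and none fell (18.2% called), where 7.53% of all 15067 genes were called, 4.52% higher. Footprints of GSTA2 and UGT2B11 were at 0 in both DE libraries. These genes passed the filter through their later level, so they had to differ from DE, which adds to the shares of both comparisons with DE. The median log2 fold change of the 22 was 0.75 from DE to PP1, -0.51 from PP1 to PP2 and 0.35 from DE to PP2. From PP1 to PP2, GSTM3 and UGT2B11 rose and GSTA2 and CYP2S1 fell (18.2% called, against 5.01% of all genes, 2.16% higher and 2.85% lower). Between DE and PP2, 6 rose (GSTA1, GSTA2, GSTA4, GSTM3, UGT2B11 and CYP2U1) and CYP1B1 fell (31.8% called, against 27.6% of all genes, 13.1% higher and 14.5% lower, so the share was near the background). The rise of GSTA4 footprints was not called without DE replicate 1 or 2, or PP2 replicate 1 or 3, or under the replicate block or without PP2 replicates 1 and 3 together (adjusted p up to 0.261). None of the PP1 to PP2 footprint calls held in every other setting: 0 genes were called when PP1 replicate 1 or 2, or PP2 replicate 3, was left out, and 7 genes were called by DESeq2's Wald test. The rise to PP1 of GSTA1, GSTA2 and UGT2B11, and the difference from DE to PP2 of GSTA1, GSTA2, GSTM3 and UGT2B11, were called in all 13 other settings. Without the PP2 replicates 1 and 3 of differing composition together, 8, 5 and 6 genes were called in the 3 comparisons, in the order given.

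GSTK1 stood high in footprints relative to its RNA, at 76.4 and 68.8 CPM in DE, 136 and 119.9 CPM in PP1 and 77.8, 116 and 74.8 CPM in PP2, although none of its footprint differences was called. GSTP1 footprints were 329.8 and 481 CPM in DE, 404 and 649 CPM in PP1 and 732, 331 and 552 CPM in PP2. Every stage overlapped the others, and no comparison was called (PP2 against DE, 0.41 ± 0.50, adjusted p = 0.564). Since Ribo and RNA libraries were scaled separately, such levels are set side by side and not tested.

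Translation efficiency, the footprint change relative to the RNA change, was tested for 21 of the 72 genes as an interaction over all 14 libraries. From DE to PP1 no gene of the 21 was called by edgeR, where 0.269% of all 14152 genes were called, 0.0707% higher and 0.198% lower; 2 had an unadjusted p under 0.05 (UGT2A3 and UGT2B7), and DESeq2 called 2. From PP1 to PP2 none was called by edgeR or by DESeq2, where 0.0777% of all genes were called; 1 had an unadjusted p under 0.05 (CYP1B1). Between DE and PP2, UGT2A3 and UGT2B7 were called lower, where 3.67% of all genes were called lower, 2.01% higher and 5.68% in either direction.

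UGT2B7 showed the wider gap between assays. Its RNA, given above, reached 10.9 to 12.3 CPM in PP2, while its footprints were 2.48 and 0 CPM in DE, 1.08 and 0 CPM in PP1 and 1.702, 0.388 and 1.66 CPM in PP2. The DE footprints were 14 counts in replicate 1 and 0 in replicate 2, and the RNA of both DE libraries was 0. The footprint change from DE to PP2 was 0.04 ± 1.38, adjusted p = 0.984, and the interaction was called (adjusted p = 0.0136); its fitted size depends on the prior count because the RNA is 0 in DE, and it gives no fold. The call was lost without RNA DE replicate 1 or 2, or Ribo DE replicate 1 (adjusted p up to 1). UGT2A3 had footprints of 0.177 and 1.27 CPM in DE, 1.08 and 0.2903 CPM in PP1 and 2.46, 0.647 and 2.31 CPM in PP2, overlapping between all stages, and an interaction of adjusted p = 0.0336 that was lost without RNA DE replicate 1 or 2, RNA PP1 replicate 1 or 2, or Ribo DE replicate 2, or under the replicate block (adjusted p up to 0.212). UGT2B28, with RNA of up to 4.24 CPM in PP2, had 3 footprint counts in all, in PP2 replicate 1. UGT2B11 of the same cluster, with far more RNA (52.4 to 165 CPM in PP2), had footprints in every PP1 and PP2 library. The reverse case was 6 genes with footprint counts and no RNA count in any library: UGT2B4 with 45 counts in 6 of 7 Ribo libraries, CYP4F2 with 31 in 6, CYP4F11 with 30 in 6, UGT1A1 with 10 in 3, CYP4F12 with 7 in 3 and CYP4F8 with 4 in 3. Footprints are short, and whether these counts came from near-identical copies was not tested. Whether the counting of such copies lowered the footprints of UGT2B7, UGT2A3 and UGT2B28 was not tested either.

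**Figure D4:**
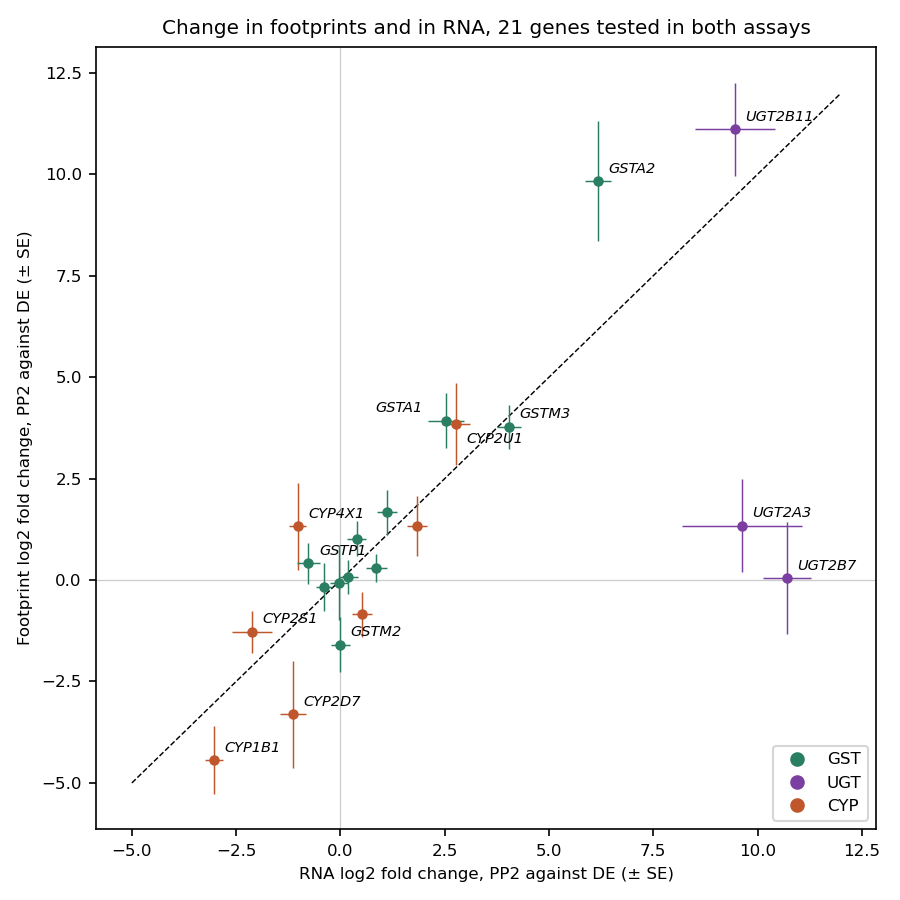
Log2 fold change of footprints against that of RNA, PP2 against DE, with SE bars, for the 21 genes tested in both assays; the dashed line marks equal change. UGT2A3 and UGT2B7 lie far to the right of the line, and estimates for genes at 0 in DE depend on the prior count.

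The genes around these enzymes were described from lists, by their counts of calls in RNA. Of 12 tested xenobiotic sensors and liver regulators, 5 rose and 1 fell from DE to PP1 (50% called, against 24.3% of all genes), with a median log2 fold change of 1.34 against 0.01 for all genes tested. Among the risers were CEBPA (log2 fold change 3.52), HNF4A (2.25), AHR (2.21), the receptor that induces CYP1A1, and PPARA (1.26), while the AHR partner ARNT fell (-0.68). In footprints, 3 of the 10 tested rose from DE to PP1 (30% called, against 7.53% of all genes). AHR footprints overlapped between DE (2.30 and 1.81 CPM) and PP1 (2.69 and 2.03 CPM), and the part of AHR in the CYP1A1 values was not tested. From PP1 to PP2 none rose and CEBPA (-2.18) and NFE2L2 (-1.09), which encodes the oxidative stress factor NRF2, fell (16.7% called, against 18.4% of all genes). The pregnane X receptor NR1I2 was higher in PP2 than in DE (3.69). Of 12 NRF2 targets, 3 rose and 3 fell from DE to PP1 (50% called, median 0.03), and from PP1 to PP2 none rose and 4 fell: HMOX1 (-4.31), AKR1C1 (-2.65), NQO1 (-2.21) and GCLM (-0.77), with a median of -0.72 and 33.3% called.

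CYPs draw electrons from a reductase and cytochrome b5, GSTs draw on glutathione, and UGTs on UDP-glucuronic acid. Of 12 genes of P450 electron transfer and haem synthesis, the cytochrome b5 gene CYB5A rose (1.92) and UROD fell (-1.02) from DE to PP1 (median of the list -0.03). The 16.7% called lay below the 24.3% of all genes. Between DE and PP2, 2 rose and 5 fell in RNA (58.3% called, against 33.5% of all genes), among them the P450 reductase POR (-1.099). In footprints, 3 of the 12 rose and 3 fell between DE and PP2 (50% called, against 27.6% of all genes). POR footprints lay the other way from its RNA, at 69.7 and 76.6 CPM in DE and 194, 91.7 and 144 CPM in PP2. Of 9 glutathione genes, the cystine carrier SLC7A11 (4.18) and GGT1 (2.09) rose from DE to PP1 (median -0.11), and the 22.2% called was near the 24.3% of all genes. GGT1 (-3.04), OPLAH (-2.62) and GCLM fell from PP1 to PP2 (33.3% called, against 18.4%). Between DE and PP2, 2 of the 9 rose and 5 fell (77.8% called, against 33.5%). Of 5 genes that supply UDP-glucuronic acid, SLC35D1 rose (0.91) from DE to PP1 (median 0.61, 20% called, near the background), and UGDH, which makes it, was higher in PP2 than in DE (0.99). Of 4 tested membrane-bound glutathione transferases and relatives, MGST2 (-1.93) and MGST1 (-0.56) fell from DE to PP1 and none rose (median -0.80, 50% called).

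Of 19 tested enzymes of other conjugation and hydrolysis routes, 10 rose and 1 fell from DE to PP1. That was 57.9% called, against 24.3% of all genes, with a median log2 fold change of 2.51. The 3 genes at 0 in DE, SULT2A1, SULT1B1 and SULT1E1, passed the filter through their later level, so they had to differ. Setting them at their bound could not move the median, because each bound lies above it. The sulfotransferases SULT2A1 (at least 135-fold), SULT1B1 (at least 64.4-fold), SULT1E1 (at least 8.801-fold) and SULT1C2 (log2 fold change 6.11) rose, as did the flavin oxygenase FMO1 (5.903). From PP1 to PP2, 1 of the 19 rose and 7 fell (42.1% called, against 18.4%), among them SULT2A1 (-3.52) and FMO1 (-3.38). Of 12 tested transporters of drugs and conjugates, 7 rose and 1 fell from DE to PP1 (66.7% called, median 1.38), led by SLCO2B1 (7.96), ABCG2 (5.38) and SLC47A1 (4.503), and from PP1 to PP2 none rose and 6 fell (50% called, median -0.91).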

How the data were processed

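RNA-seq and Ribo-seq counts of 14 HUES8 libraries came from 1 deposited table of whole-number read counts per gene, made by the authors. Per the submitters' processing notes, cutadapt 1.18, Bowtie 1.2, STAR 2.7.1a and featureCounts 1.6.4 were used with hg38/GRCh38; the strand, annotation and multi-mapping settings are not given in the sources used here, and these affect genes with near-identical copies most. Counts were analysed in R 4.3.3 with edgeR 4.0.16: filterByExpr (minimum count 10), TMM scaling and the quasi-likelihood F test, with the 3 stages of an assay in 1 fit and translation efficiency as an interaction over 14 libraries. P-values were adjusted by Benjamini-Hochberg over all genes tested, and a gene was called at an adjusted p under 0.05. Levels are CPM over TMM-scaled library sizes. Where a stage had no count, folds are bounds at 3 counts over the group; with 1 to 3 counts the ratio has an exact 95% interval, for counting error only.

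Values in each library are given for the 27 genes called in an RNA or Ribo comparison or averaging at least 10 CPM in an RNA stage. The genes and lists were chosen with earlier results of these data known. Alternatives were DESeq2 size factors, DESeq2 1.42.0's Wald test, no filter, no mitochondrial genes, a replicate block, and leaving out libraries. The method was run on simulated counts with the same spread for every gene and library. No simulated library stood apart as PP2 libraries did here, so that run cannot show how the method copes with such libraries. Sequences and coordinates are from RefSeq, GRCh38.p14. A few items of the gene set and lists are not reported here.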

Additional observations from a re-analysis of the deposited data

How the results depend on the processing

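Of 831 comparisons of a called gene with 1 other setting, 684 kept the call, 147 lost it and none changed sign; 4 further cases could not be tested. Leaving out 1 library gave 7 to 22 called genes for RNA from DE to PP1 (17 as reported), 8 to 20 from PP1 to PP2 (15) and 11 to 22 from DE to PP2 (18). For footprints it gave 3 to 5 (4), 0 to 6 (4) and 5 to 9 (7), and for translation efficiency 0 to 6 from DE to PP2 (2). No other setting moved an RNA count of these enzymes by over 1.5 times. Over all genes, the numbers called moved more: 2935 to 11997 (5979 as reported), 1210 to 9984 (4533) and 4216 to 12649 (8240) for RNA, 424 to 3005 (1135), 58 to 3474 (755) and 1682 to 6837 (4153) for footprints, and 6 to 221 (38), 0 to 1110 (11) and 52 to 3704 (804) for translation efficiency, so the background shares move with the setting too.

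Without RNA PP2 replicate 3 the bound on the rise of UGT2A3 from DE to PP2 fell from 59.8-fold to 32.6-fold; this bound was added after seeing the data. No pairing by replicate number was seen: correlations of same-numbered libraries between stages ran from -0.19 to 0.08. With so few libraries a stage, this cannot show whether same-numbered libraries shared a culture. With the replicate block, 21, 21 and 22 RNA genes were called in the order above, 3, 1 and 4 for footprints, and 1 for translation efficiency from DE to PP2. DESeq2's Wald test called 7 genes for footprints from PP1 to PP2, and 2 and 4 for translation efficiency from DE to PP1 and from DE to PP2. Without mitochondrially encoded genes, 1 gene was called for translation efficiency from DE to PP2, because UGT2B7 did not enter that test and UGT2A3 kept its call. Without Ribo PP2 replicates 1 and 3 together, 8 genes were called for footprints from DE to PP1, and 1 for translation efficiency from DE to PP2, UGT2B7, because UGT2A3 did not enter the test there, nor without either of them alone. The other causes were not tested. As reported, 22 of the 72 genes entered the footprint tests.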
